A study of Mus musculus with 4 samples.

Results

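The genes described here encode nuclear subunits of respiratory complex II, respiratory complex III and ATP synthase, together with cytochrome c. They were taken by symbol, as the genes whose mouse symbol in GENCODE M21 is Sdha to Sdhd, begins with Uqcr or Atp5, or is Cyc1 or Cycs. This gave 31 of the 11502 gene symbols with a value: 4 for complex II, 9 for complex III, 17 named after ATP synthase, and Cycs. A further 7 annotated symbols that match the names, all processed pseudogenes, had no value. A subunit listed under another symbol falls outside this set.

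Complex II oxidizes succinate to fumarate in the citrate cycle and hands the electrons to ubiquinone. Complex III takes them from ubiquinol, pumps protons across the inner mitochondrial membrane and reduces cytochrome c, a small soluble protein that carries the electrons on to complex IV. ATP synthase lets the protons flow back through a rotating ring of subunit c and uses the turning to make ATP in its catalytic head. PGC-1α is a transcriptional coactivator known for raising the expression of genes of mitochondrial biogenesis, and neurons meet most of their energy need through these complexes.

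The RNA was sequenced from HT-22, a line of mouse hippocampal neurons that has been immortalized and that the labels list as hippocampal neurons, with 1 library in each of 4 groups. The PGC-1α group carried a lentivirus that overexpresses PGC-1α. The Ctrl group is called wild type in the labels, and the study's methods describe a negative control lentivirus for HT-22 cells. Whether the sequenced Ctrl cells carried it is not stated. If they did not, effects of the virus and of selection cannot be told apart from those of PGC-1α. Per the methods, transfected cells were selected with puromycin. These 2 groups received no further treatment. The Ctrl+OGD and PGC-1α+OGD groups were the same 2 kinds of cells exposed to oxygen and glucose deprivation (OGD) for 2 h, in medium without serum or glucose under nitrogen and carbon dioxide, and then returned to normal medium for 24 h. A comparison of PGC-1α with control cells asks what the coactivator does to these genes with and without OGD, and a comparison of OGD with untreated cells asks what the deprivation leaves behind after the recovery.

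All levels were taken as FPKM, a read density per length of transcript and per total of fragments in the library. The sources used here do not name the unit. Values were summed over the transcripts of a gene. A log2 fold change is the difference of log2(FPKM + 1) between 2 libraries, and "higher" or "lower" as a count means at least 1.5-fold on that scale. With 1 library per group there was no replicate spread, so no difference below was tested, no value carries an error, and each compares libraries rather than conditions. Where 4 values follow each other unnamed, the order is Ctrl and PGC-1α, then Ctrl and PGC-1α after OGD. The depth of the libraries is unknown because the values are not counts. In bulk cells, fewer cells of a type and less RNA per cell cannot be told apart.

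The summed FPKM of all transcripts ranged from 331892 to 353381 across the 4 libraries. Ppargc1a, which encodes PGC-1α, stood at 0.900 FPKM in Ctrl and 35.1 in PGC-1α, and after OGD at 0.103 and 8.41 in these 2 kinds of cells, so both libraries labelled PGC-1α were above both controls and the one after OGD was the lower of them. Of 14 neuronal markers, 2 had a value, Syp and Camk2a, with a summed level of 5.10 to 8.31 FPKM, and the defining markers Rbfox3, Map2 and Tubb3 were not among them. Of 5 fibroblast markers 4 had a value, with a summed level of 412 to 486 FPKM. Astrocyte markers had a value in 3 of 6, at 13.6 to 24.0 FPKM summed and higher in both PGC-1α libraries than in both controls. That order was carried by S100b, since Aldh1l1 and Slc1a3 were lowest in PGC-1α+OGD, at 2.32 and 0.137 FPKM. Microglial and oligodendrocyte markers had a value in 1 of 5 each, at no more than 1.22 and 4.76 FPKM, and endothelial markers in 0 of 3. The part of these cell type markers in the results below was not tested.

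All 31 genes had a mean of at least 1 FPKM, the limit set for the 10604 genes compared. As a group they were more abundant in the PGC-1α library than in Ctrl: 29 of 31 had a log2 fold change above 0, with a median of 0.54, where the median of all genes compared was -0.03. At least 1.5-fold higher were 12 of the 31 genes, against a background of 4.91% of all genes. At least 1.5-fold lower was 1, Atp5s, against 5.63% of all genes. The threshold ran through the middle of a dense range, with 7 genes less than 0.1 above it on the log2 scale and 7 less than 0.1 below it.

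After OGD the same contrast was smaller. Between PGC-1α+OGD and Ctrl+OGD the median was 0.24, beside -0.01 for all genes, and 29 of 31 genes were above 0. Only Atp5s was at least 1.5-fold higher, where the background was 3.08%, and 0 genes were at least 1.5-fold lower, where it was 3.82%. In 28 of the 31 genes the log2 fold change was above 0 both without and with OGD, which held for 23.3% of all genes compared.

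**Figure D1:**
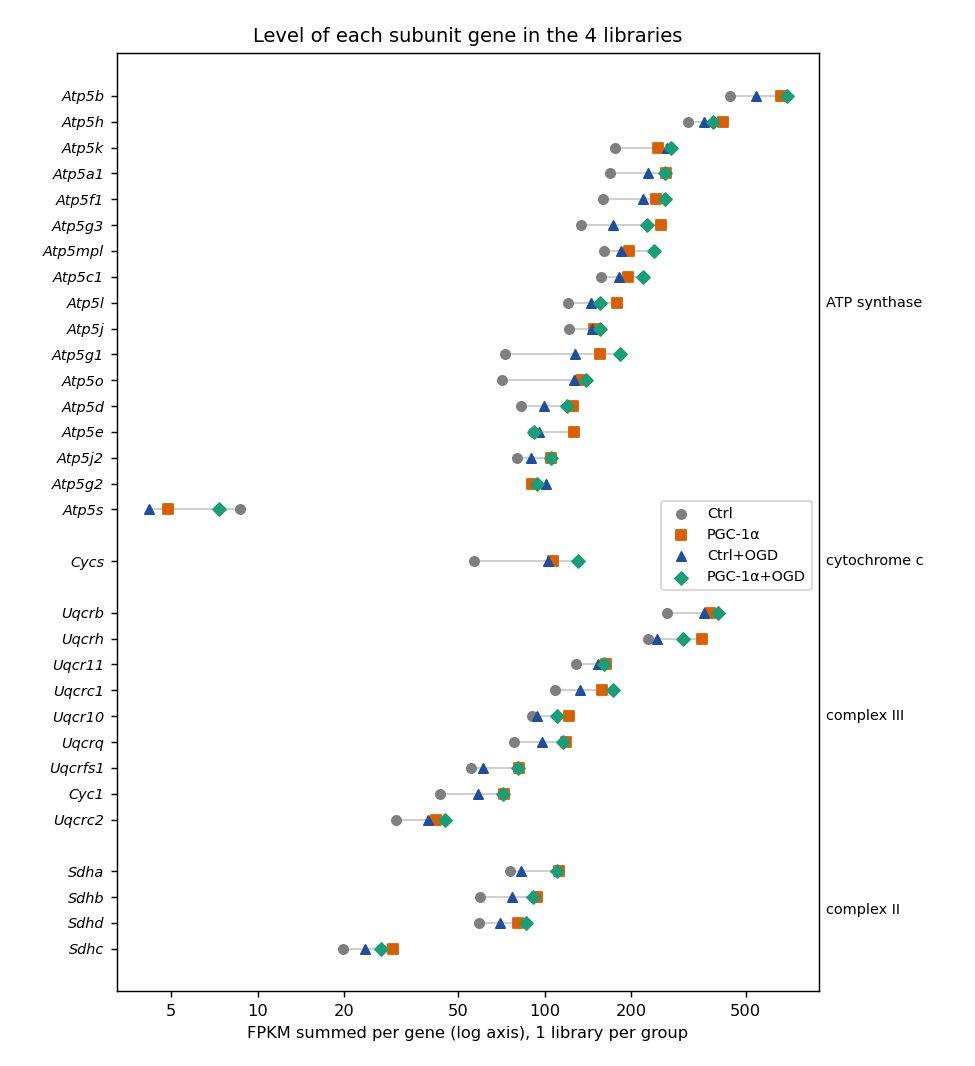
Level of each of the 31 genes in FPKM (horizontal, log axis) in the 4 libraries, 1 point per library, with genes grouped by complex and ordered by their mean. The gray circle of Ctrl is the lowest point for 29 of the 31 genes, and Atp5s, at 4.18 to 8.71 FPKM, lies far below every other gene.

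The Ctrl library held the lowest of the 4 values for 29 of the 31 genes, where this was so for 28.2% of all genes compared. The exceptions were Atp5g2, lowest in the PGC-1α library, and Atp5s, lowest in Ctrl+OGD. The highest value lay in PGC-1α for 16 genes and in PGC-1α+OGD for 13. Summed over the 31 genes, the level was 3746 FPKM in Ctrl and 5449 in PGC-1α, then 4680 and 5514 after OGD, which is 1.13%, 1.61%, 1.32% and 1.59% of all FPKM in each library. Ctrl was also the lowest library for 32 of 37 nuclear genes named after complex I and 10 of 13 named after complex IV. Every comparison against Ctrl rests on that 1 library.

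Complex II has 4 subunits, all encoded in the nucleus. Sdhb, the iron-sulfur subunit that passes electrons from the flavin towards ubiquinone (chr4:140961203-140979193, plus strand, GRCm38), stood at 59.4 FPKM in Ctrl and 93.9 in PGC-1α, then 76.5 and 90.7 after OGD. It was the one gene of complex II past 1.5-fold, with a log2 fold change of 0.65 for PGC-1α against Ctrl and 0.24 after OGD. Its Ctrl value was the lowest and both PGC-1α libraries lay above both controls.

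Sdha, the flavoprotein that holds the succinate site, was the most abundant of the 4 per length, at 75.9 and 112 FPKM in Ctrl and PGC-1α, then 82.4 and 110 after OGD. The PGC-1α libraries nearly coincided and stood above both controls, with log2 fold changes of 0.56 without and 0.41 with OGD, the latter the largest of complex II. The membrane anchor Sdhc was the least abundant, at 19.8, 29.6, 23.6 and 26.8 FPKM in the same order, with 0.55 and 0.18. The other anchor, Sdhd, stood at 59.0, 80.6, 69.6 and 86.1 FPKM, with 0.44 and 0.30. All 4 genes had their lowest value in Ctrl, and mean levels within the complex spanned 3.81-fold.

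In complex III the redox-active nuclear subunits are cytochrome c1, encoded by Cyc1, and the Rieske iron-sulfur protein, encoded by Uqcrfs1. Cyc1 (chr15:76343523-76346260, plus strand) stood at 43.1 FPKM in Ctrl and 72.0 in PGC-1α, then 58.6 and 71.2 after OGD, and its log2 fold change of 0.73 for PGC-1α against Ctrl was the largest of the complex. After OGD it was 0.28, with Ctrl+OGD lying between Ctrl and the PGC-1α libraries. Uqcrfs1 stood at 55.5, 81.4, 60.8 and 80.3 FPKM in the same order. Here the control barely differed with OGD (0.13), and the contrast of PGC-1α with control was 0.54 without OGD and 0.39 with it, the latter the largest of complex III.

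Among the small subunits, Uqcrh, the hinge protein near the cytochrome c1 site, stood at 229 FPKM in Ctrl and 352 in PGC-1α, then 246 and 302 after OGD, a log2 fold change of 0.62 between PGC-1α and Ctrl. Uqcrq, a small membrane-spanning subunit, stood at 77.9, 118, 97.4 and 115 FPKM, with 0.60. Both lay higher in each PGC-1α library than in either control, and after OGD their contrasts were 0.29 and 0.24. Uqcrb, a small subunit needed for assembly of the complex, was the most abundant gene of the complex per length, at 266, 376, 358 and 402 FPKM, with 0.50 and 0.17. Its Ctrl+OGD value sat close to the PGC-1α value and well above Ctrl.

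Uqcr11, a small accessory subunit, stood at 128 and 164 FPKM in Ctrl and PGC-1α, then 153 and 160 after OGD. Its log2 fold changes of 0.35 and 0.07 were the smallest of complex III in both contrasts of PGC-1α with control. The core subunit Uqcrc2 was the least abundant, at 30.2, 41.9, 39.2 and 44.8 FPKM, with 0.46 and 0.19. The other core subunit, Uqcrc1, had 0.54 and 0.38, and Uqcr10 had 0.43 and 0.23. All 9 genes of complex III were above 0 in both contrasts and lowest in Ctrl, and mean levels spanned 8.98-fold from Uqcrc2 to Uqcrb.

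Cycs encodes somatic cytochrome c (chr6:50562563-50566538, minus strand), the carrier between complexes III and IV that also takes part in apoptosis once it leaves the mitochondria. Its level was 56.7 FPKM in Ctrl and 107 in PGC-1α, then 103 and 130 after OGD. The Ctrl value stood apart below the other libraries, and the PGC-1α and Ctrl+OGD values were close to each other. PGC-1α stood 0.90 above Ctrl on the log2 scale, and 0.34 above it after OGD. For OGD it was 0.85 in control cells, the largest of the 31 genes, and 0.28 in PGC-1α cells. Cyct, the testis form, had a mean below 1 FPKM.

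ATP synthase contributed 7 of the 12 genes at least 1.5-fold higher in PGC-1α than in Ctrl. They came from the catalytic head, the subunit c genes and the peripheral stalk. None of the 4 genes grouped here as small membrane subunits was among them. The head, F1, is built from subunits α, β, γ, δ and ε, encoded by Atp5a1, Atp5b, Atp5c1, Atp5d and Atp5e. Atp5b, the catalytic β subunit, was the most abundant of the 31 genes per length, at 440 FPKM in Ctrl and 663 in PGC-1α, then 543 and 696 after OGD. It was above both controls in both PGC-1α libraries, with log2 fold changes of 0.59 without and 0.36 with OGD.

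Atp5a1, the α subunit that alternates with β around the head, stood at 169 FPKM in Ctrl and 264 in PGC-1α, then 228 and 261 after OGD, with 0.64 and 0.19. Atp5d, the δ subunit of the central stalk, stood at 82.8, 125, 99.6 and 120 FPKM, with 0.59 and 0.26. Atp5c1, the γ subunit that turns inside the head, had smaller contrasts of 0.31 and 0.27. Atp5e, the ε subunit, had a log2 fold change of 0.47 without OGD and -0.06 with it. It was 126 FPKM in the PGC-1α library and between 90.5 and 95.5 in the other libraries, and its -0.45 for OGD in PGC-1α cells was the lowest of the 31 genes in that comparison.

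The rotor ring of ATP synthase is made of copies of subunit c, a small hydrophobic protein that binds the proton. Mice encode it in 3 genes, Atp5g1 (chr11:96068852-96075670), Atp5g2 (chr15:102662864-102672352) and Atp5g3 (chr2:73908447-73911326), all on the minus strand, whose products differ in the import sequence and share the mature protein. The end of the 3 coding sequences is printed to show how far reads can tell the genes apart, as the last 225 coding bases before the stop codon from the GENCODE M21 transcripts, 5′ to 3′, with capitals where the 3 genes are not all alike.
Atp5g1: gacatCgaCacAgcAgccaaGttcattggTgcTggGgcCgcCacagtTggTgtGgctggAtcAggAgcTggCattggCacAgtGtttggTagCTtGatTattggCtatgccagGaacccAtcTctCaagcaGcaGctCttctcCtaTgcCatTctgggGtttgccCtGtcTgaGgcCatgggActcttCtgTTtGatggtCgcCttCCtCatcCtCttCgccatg
Atp5g2: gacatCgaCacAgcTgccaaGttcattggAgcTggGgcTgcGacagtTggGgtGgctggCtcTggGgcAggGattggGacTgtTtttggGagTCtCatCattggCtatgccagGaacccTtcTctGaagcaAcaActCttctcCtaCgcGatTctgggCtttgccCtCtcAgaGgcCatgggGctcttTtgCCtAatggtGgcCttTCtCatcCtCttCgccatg
Atp5g3: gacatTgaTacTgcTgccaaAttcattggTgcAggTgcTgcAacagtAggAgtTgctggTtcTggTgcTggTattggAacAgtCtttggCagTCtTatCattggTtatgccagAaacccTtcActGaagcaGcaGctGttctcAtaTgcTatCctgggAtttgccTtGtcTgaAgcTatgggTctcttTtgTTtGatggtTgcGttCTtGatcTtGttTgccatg
The 3 stretches encode the same 75 residues. They differ at 57 positions, of which 52 fall at the third codon position, 5 at the first and 0 at the second. Atp5g1 and Atp5g2 share 84.9% of the bases, Atp5g1 and Atp5g3 80%, and Atp5g2 and Atp5g3 78.7%. Over the whole transcripts the longest identical runs were 21, 11 and 9 bases for these pairs, so a read longer than that carries at least 1 difference.

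The 3 genes did not move alike. Atp5g1 was 72.7 FPKM in Ctrl and 156 in PGC-1α, then 127 and 183 after OGD, and its log2 fold change of 1.09 for PGC-1α against Ctrl was the largest of the 31 genes and the only one past 2-fold. Atp5g3 was 134, 253, 173 and 227 FPKM, with 0.92. Atp5g2 was 90.8, 89.9, 101 and 93.5 FPKM, with -0.01, and its 4 values lay close together, with both OGD libraries slightly above both untreated ones. After OGD the 3 contrasts of PGC-1α with control were 0.52 for Atp5g1, 0.39 for Atp5g3 and -0.11 for Atp5g2, the last being the lowest of ATP synthase.

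As a share of the summed subunit c level, Atp5g1 made up 24.5% in Ctrl and 31.2% in PGC-1α, then 31.7% and 36.4% after OGD. Atp5g2 went the other way, with 30.6%, 18.0%, 25.2% and 18.6%. Atp5g3 was the largest share in each library, between 43.1% and 50.7%. The sum was 297 FPKM in Ctrl and 499 in PGC-1α, then 401 and 503 after OGD, a log2 fold change of 0.75 without and 0.33 with OGD.

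**Figure D2:**
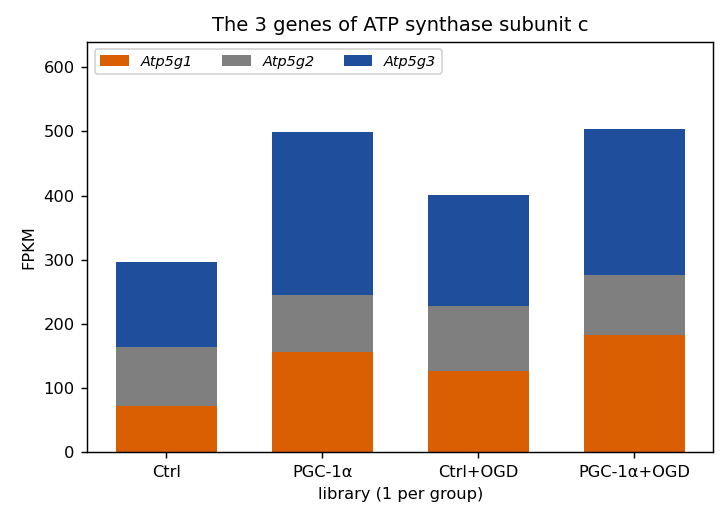
FPKM of the 3 subunit c genes (vertical), stacked, in each library (horizontal, 1 per group). The Atp5g2 segment is of like height in all 4 bars, 89.9 to 101 FPKM, while the Atp5g1 and Atp5g3 segments are tallest in the libraries with PGC-1α.

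The peripheral stalk holds the head still against the turning rotor. Its subunit OSCP, encoded by Atp5o (chr16:91925214-91931687, minus strand), stood at 70.8 FPKM in Ctrl and 134 in PGC-1α, then 126 and 139 after OGD. The Ctrl value stood alone below 3 similar values, which gave a log2 fold change of 0.91 for PGC-1α against Ctrl and 0.83 for OGD in control cells, but 0.14 for PGC-1α after OGD. Atp5f1, the b subunit, stood at 159, 243, 220 and 262 FPKM, with 0.61 for PGC-1α against Ctrl and 0.25 after OGD. The d subunit Atp5h and the F6 subunit Atp5j had smaller contrasts without OGD, 0.40 and 0.29, and 0.10 and 0.09 with it.

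The small membrane subunits lie beside the ring, where several of them help ATP synthase to form dimers. Atp5k, the e subunit, was 175 FPKM in Ctrl and 247 in PGC-1α, then 265 and 274 after OGD. Ctrl was again the low library, and the log2 fold change for OGD in control cells was 0.59, above the 0.49 for PGC-1α against Ctrl. Atp5l, the g subunit, had 0.56 for PGC-1α without OGD and 0.10 with it, and Atp5j2, the f subunit, had 0.38 and 0.22. Atp5mpl was the 1 structural subunit with a larger value after OGD, 0.38 against 0.29.

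Atp5s (chr12:69724950-69744660, plus strand) encodes a protein once called coupling factor B, now named Dmac2l, which is not a structural part of the enzyme. It stood at 8.71 FPKM in Ctrl and 4.87 in PGC-1α, then 4.18 and 7.35 after OGD, high in the untreated control and in the treated PGC-1α cells and low in the others. The log2 fold change for PGC-1α was -0.73 without OGD and 0.69 with it. Its mean was the lowest of the 31 genes. Leaving Atp5s out, the mean levels of the ATP synthase genes spanned 6.24-fold.

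Of the 31 genes, 15 had 1 transcript with a value and 16 had between 2 and 6. In 8 of those 16 a single transcript held over 90% of the gene's FPKM in each library, the subunit c genes Atp5g1 and Atp5g2 among them. Atp5d was an exception that its gene sum hides. Atp5d-201 stood at 9.84 FPKM in Ctrl and 44.7 in PGC-1α, then 26.7 and 37.0 after OGD, while Atp5d-202, its most abundant transcript, stood at 37.3, 43.8, 37.8 and 52.3 and Atp5d-203 at 35.6, 36.3, 35.1 and 30.3. On these values the difference between PGC-1α and Ctrl lay mostly in Atp5d-201. On Atp5d-202 alone the log2 fold change was 0.23, below the threshold. Estimation can move reads between transcripts of the same gene. The part of this in the transcript values here and below was not tested.

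Atp5h-203, a minor transcript of Atp5h, was 20.1 FPKM in Ctrl and 4.81 in PGC-1α, then 3.70 and 34.1 after OGD. As for the Atp5s gene, its Ctrl and PGC-1α+OGD values lay above the other 2. Atp5j2-201 was 7.41 FPKM in Ctrl and 0.967 in PGC-1α, and after OGD it was listed at 0 in control and stood at 1.60 in PGC-1α cells. For Atp5s the most abundant transcript, Atp5s-204, held between 23.8% and 65.4% of the gene's FPKM. On that transcript alone the contrasts of PGC-1α with control were -0.19 without OGD and 0.01 with it.

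**Figure D3:**
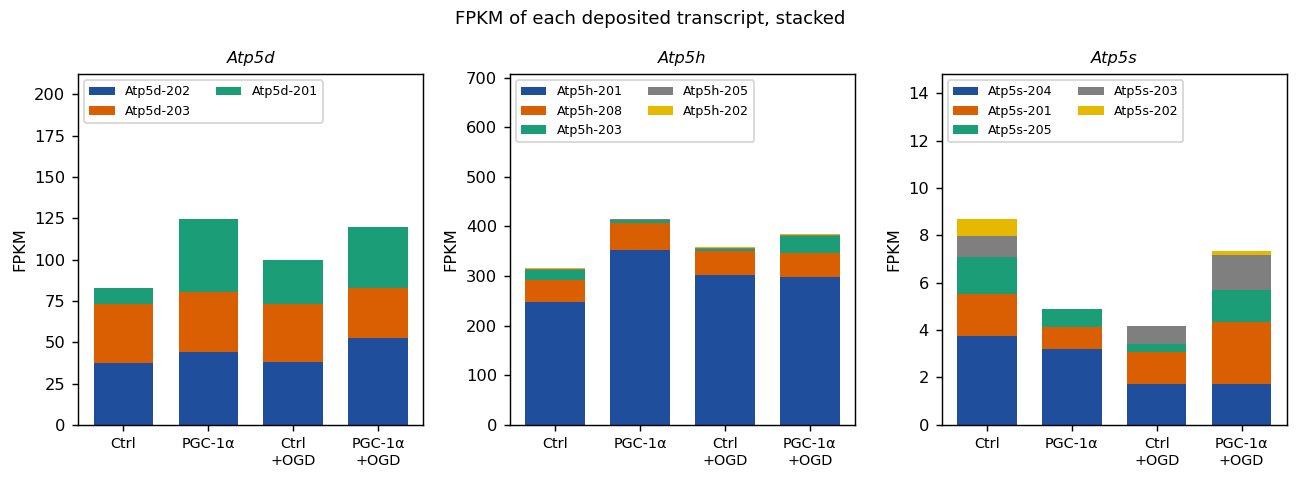
FPKM of each transcript (vertical, stacked) of Atp5d, Atp5h and Atp5s in the 4 libraries (horizontal, 1 per group), each panel with its own scale. Atp5d-201, stacked above a nearly level Atp5d-203, grows from 9.84 FPKM in Ctrl to 44.7 in PGC-1α. The Atp5s bars divide differently in each library.

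Exons of Atp5a1, Atp5d, Atp5f1, Atp5j and Uqcrb overlap exons of another gene with a value on the opposite strand (Haus1, Cbarp, Wdr77, Gabpa and Gm10767). The library kit keeps strand, but whether the counting used it is not given in the sources used here, so reads of these pairs may be mixed. Atp5o overlaps a second gene model of the same symbol on its own strand. The part of these overlaps in the values was not tested.

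The complexes differed little in their medians. For PGC-1α against Ctrl the median log2 fold change was 0.55 in complex II, 0.54 in complex III and 0.49 in ATP synthase, and the largest difference between a pair of complexes was 0.06. After OGD the medians were 0.27, 0.24 and 0.22. The difference lay in the spread among genes: complex II ran from 0.44 to 0.65, complex III from 0.35 to 0.73 and ATP synthase from -0.73 to 1.09, or from -0.01 without Atp5s. The SD across genes was 0.08, 0.11 and 0.41, and 0.28 for ATP synthase without Atp5s. Within ATP synthase it was 0.13 over the 5 F1 genes and 0.12 over the 4 small membrane subunits. It was 0.59 over the 3 subunit c genes and 0.27 over the 4 genes of the peripheral stalk. Genes of a complex are not replicates, and these values describe 1 pair of libraries.

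**Figure D4:**
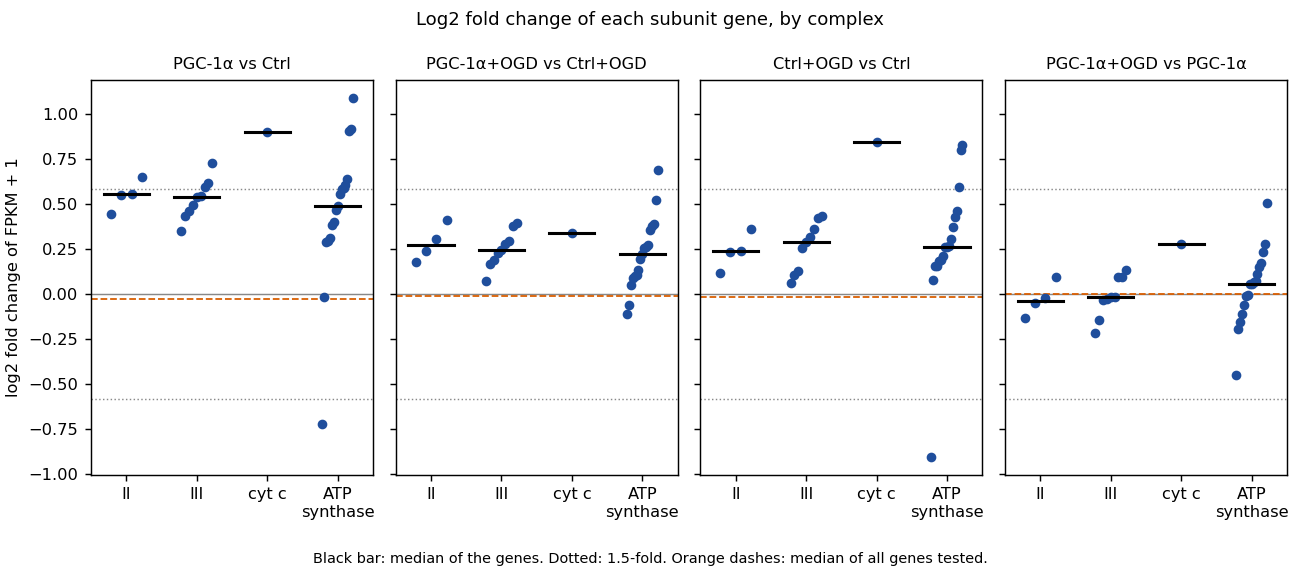
Log2 fold change of FPKM + 1 (vertical) of each gene, 1 point per gene, by complex (horizontal) in the 4 comparisons, with black bars for the medians, dotted lines at 1.5-fold and orange dashes for the median of all genes compared. Complexes II and III form tight groups, at 0.35 to 0.73 in the first panel, and ATP synthase spreads from -0.73 to 1.09.

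Genes named after nuclear subunits of complexes I and IV, measured in the same way, give the frame for these values. They were also taken by symbol, so the lists may hold genes that are not subunits. For PGC-1α against Ctrl the median was 0.40 over 37 complex I genes and 0.49 over 13 complex IV genes, and after OGD it was 0.14 and 0.10. At least 1.5-fold higher without OGD were 5 of 37 and 2 of 13, against 12 of 31 here and 4.91% of all genes. The count here depends on where the threshold falls, since 7 of the 31 genes lay less than 0.1 above it. Without OGD the SD across genes was 0.28 in complex I and 0.83 in complex IV. The values ran from -0.35 (Ndufa4l2) to 1.18 (Ndufb10) in complex I. In complex IV they ran from -0.99 (Cox6a2) to 2.70 (Cox7a1).

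OGD in control cells gave a second, smaller set of higher values. Between Ctrl+OGD and Ctrl 30 of 31 genes were above 0, with a median of 0.26 beside -0.02 for all genes. At least 1.5-fold higher were 4 genes, Cycs, Atp5o, Atp5g1 and Atp5k, against a background of 6.2%, and at least 1.5-fold lower was Atp5s, at -0.91, against 7.71%. Outside this count, the genes that came nearest below the threshold in each complex were Atp5f1 at 0.46, Cyc1 at 0.43 and Sdhb at 0.36. The medians were 0.24 in complex II, 0.29 in complex III and 0.26 in ATP synthase. They were 0.24 over the nuclear complex I genes and 0.19 over those of complex IV.

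In PGC-1α cells OGD was followed by no such shift. Between PGC-1α+OGD and PGC-1α the median was -0.02 over the nuclear complex I genes and 0.05 over those of complex IV. The median of the 31 genes was -0.01, with 15 genes above 0 and 16 below. At least 1.5-fold higher were 0 genes, against a background of 3.82%, and at least 1.5-fold lower were 0, against 5.22%. The values ran from -0.45 for Atp5e to 0.51 for Atp5s. In complex II 3 of 4 genes and in complex III 6 of 9 were below 0, and in ATP synthase 10 of 17 were above.

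Put per gene, the PGC-1α contrast was larger without OGD than with it in 29 of 31 genes, where this was so for 49.3% of all genes compared. The 2 exceptions were Atp5mpl and Atp5s. The median difference between the contrasts was 0.32 on the log2 scale in the 31 genes and -0.01 in all genes. It was 0.26 in complex II, 0.28 in complex III and 0.32 in ATP synthase. Among the structural subunits it was largest for Atp5o, at 0.77. By arithmetic this difference equals that between the OGD contrasts of control and PGC-1α cells, so it is not a separate observation from them, and it was not tested.

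**Figure D5:**
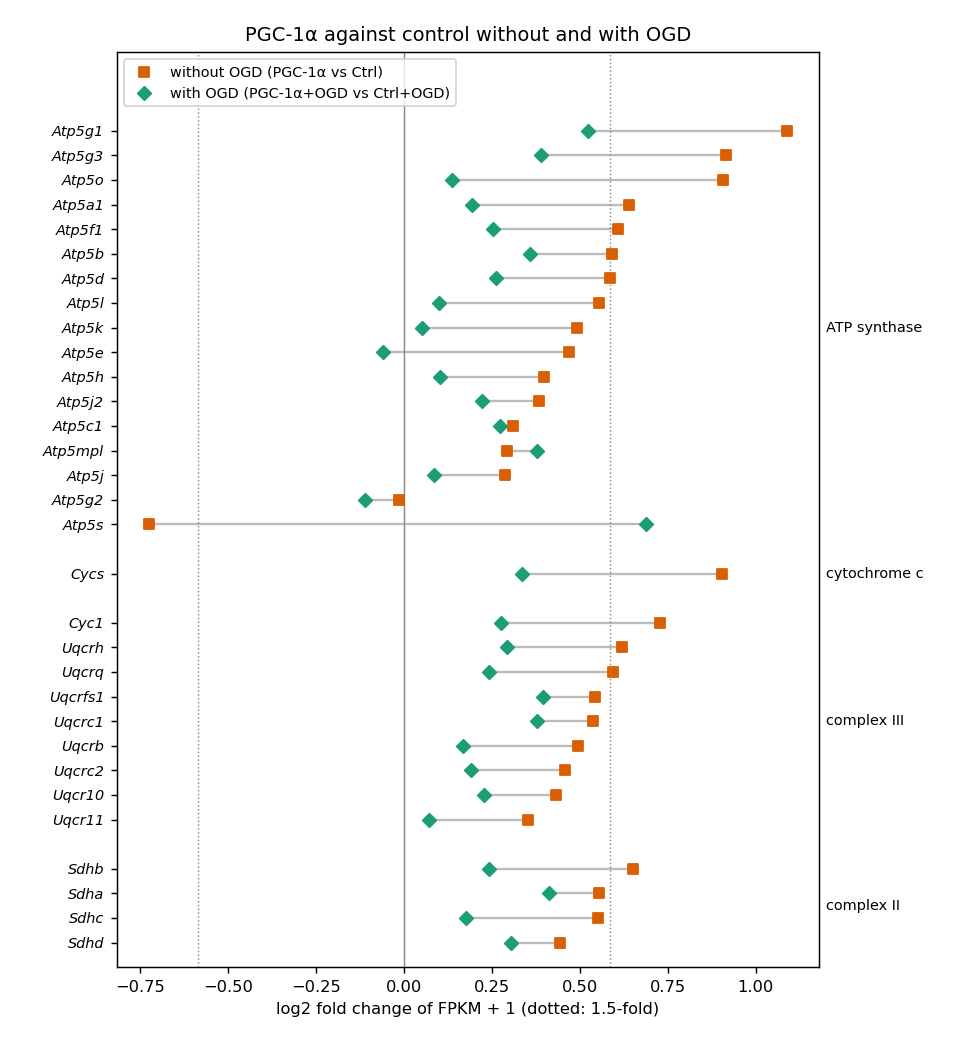
Log2 fold change of FPKM + 1 (horizontal) of PGC-1α against control without OGD (orange squares) and with OGD (green diamonds) for each gene, grouped by complex, with dotted lines at 1.5-fold. The green point lies left of the orange one for 29 of 31 genes, and Atp5mpl and Atp5s are the exceptions.

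Genes that work with these complexes were followed as a list of 26 symbols, of which 25 had a value and 23 passed the limit of 1 FPKM. Dmac2l, the remaining symbol, is the newer name of Atp5s. For PGC-1α against Ctrl the median of the list was 0.33, beside -0.03 for all genes, and 4 of 23 genes were at least 1.5-fold higher and 0 lower, against 4.91% and 5.63% of all genes. They were Tmem70, an assembly factor of ATP synthase (1.26), Ppif, the cyclophilin D of the permeability transition (0.70), Sdhaf4, an assembly factor of complex II (0.60), and Slc25a5, an ADP/ATP carrier (0.59).

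Tmem70 was 15.3 FPKM in Ctrl and 37.8 in PGC-1α, then 17.6 and 20.5 after OGD, high in 1 library only. Its log2 fold change of -0.85 for OGD in PGC-1α cells was the only one of the list past 1.5-fold in that comparison, where 3.82% of all genes were higher and 5.22% lower. After OGD 0 of 23 genes were past 1.5-fold for PGC-1α against control, which is near the 3.08% higher and 3.82% lower of all genes, with a median of 0.08 beside -0.01. For OGD in control cells Slc25a5 alone was, at 0.63, where 6.2% of all genes were higher and 7.71% lower. The 3 subunits encoded by mitochondrial DNA had contrasts without and with OGD of 0.23 and 0.26 for mt-Cytb, 0.19 and 0.20 for mt-Atp6, and 0.45 and 0.33 for mt-Atp8. The 13 assembly factors that passed had a median of 0.21 without OGD and -0.06 with it.

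The promoters were searched because most of the genes were higher together. RefSeq promoter windows on GRCm38.p6, from 250 bases before to 30 bases after the annotated start, were matched for 24 of the 31 genes. The window nearest the start of the gene's most abundant transcript was used. The RefSeq start lay 836 bases from that start for Atp5f1, 521 for Atp5j2 and at most 80 for the others. The motifs, searched on both strands, were TNAAGGTCA, bound by estrogen-related receptors, CCGGAAGT, bound by GABP, CGCANGCG, a core bound by NRF1, and AAGATGGC, a core bound by YY1. CGCANGCG was present in 13 of the 24 windows and in 7.78% of 32851 mouse promoters. CCGGAAGT was present in 3, beside 3.72%, AAGATGGC in 1, that of Atp5f1, beside 2.29%, and TNAAGGTCA in 1, beside 1.25%. The GC content had a median of 58.2% in the 24 windows and 52.5% in all. The 32851 promoters belong to 27025 genes and are not limited to genes with a value here. The shares therefore do not compare expressed genes alone. Matches to different motifs did not overlap in these 24 windows. A match describes letters and not a bound site.

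The windows of the subunit c genes and of Cycs are printed because the former differed in their fold changes and Cycs stood highest outside ATP synthase. They are given 5′ to 3′ on the minus strand of GRCm38.p6, with matches to the motifs in capitals.
Atp5g1 (chr11:96075602-96075881): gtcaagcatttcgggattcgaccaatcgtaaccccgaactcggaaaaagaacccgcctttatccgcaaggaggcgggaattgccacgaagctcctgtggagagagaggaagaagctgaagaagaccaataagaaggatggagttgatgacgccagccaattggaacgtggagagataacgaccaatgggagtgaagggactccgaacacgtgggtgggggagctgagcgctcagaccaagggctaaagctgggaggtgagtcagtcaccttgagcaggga
Atp5g2 (chr15:102671018-102671297): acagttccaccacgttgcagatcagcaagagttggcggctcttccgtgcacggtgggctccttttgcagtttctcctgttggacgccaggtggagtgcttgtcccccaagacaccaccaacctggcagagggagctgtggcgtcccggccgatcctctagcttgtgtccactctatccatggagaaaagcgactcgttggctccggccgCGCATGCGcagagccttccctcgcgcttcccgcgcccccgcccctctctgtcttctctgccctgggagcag
Atp5g3 (chr2:73911297-73911576): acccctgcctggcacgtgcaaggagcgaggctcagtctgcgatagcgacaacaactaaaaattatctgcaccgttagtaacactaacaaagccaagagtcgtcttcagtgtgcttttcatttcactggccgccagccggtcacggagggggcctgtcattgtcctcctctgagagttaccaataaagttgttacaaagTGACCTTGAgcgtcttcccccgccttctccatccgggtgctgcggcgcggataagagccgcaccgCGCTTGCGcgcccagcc
Cycs (chr6:50566540-50566819): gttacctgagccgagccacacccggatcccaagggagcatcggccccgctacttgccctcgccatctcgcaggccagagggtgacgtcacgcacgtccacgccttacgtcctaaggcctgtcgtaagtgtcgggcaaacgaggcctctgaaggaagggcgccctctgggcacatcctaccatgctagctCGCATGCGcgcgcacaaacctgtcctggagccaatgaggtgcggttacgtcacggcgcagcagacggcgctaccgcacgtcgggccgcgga
The Atp5g3 window holds the only TNAAGGTCA match of the 24, read on the opposite strand 52 bases before the start, and a CGCANGCG match just after the start. Atp5g2 and Cycs each hold a CGCANGCG match, 41 and 61 bases before the start. Atp5g1, with the largest log2 fold change of the 31 genes, has 0 exact matches to the 4 motifs in this window. Atp5g2, with a log2 fold change of -0.01, has 1. A link between matches and the size of the contrast was not tested.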

How the data were processed

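The deposited table holds FPKM per transcript for 4 RNA-Seq libraries. Per the labels and the study's methods, the authors enriched poly(A) RNA, made stranded libraries and aligned reads with HISAT2 2.1.0 (submitters' processing notes) to GRCm38. The sources used here do not name the unit, so reading the values as FPKM is an assumption. Of 25889 transcripts 99.74% matched GENCODE M21 and were summed per symbol with Python 3.11.15, numpy 2.4.6 and pandas 2.3.3, and plotted with matplotlib 3.10.9. Genes averaging 1 FPKM or more were compared as log2(FPKM + 1), which understates changes of low genes. No test was run, since each group has 1 library. The arithmetic was checked on simulated data built with the same formula, which does not show how reliable a value from 1 library is. The genes and lists were chosen with earlier results of these data known. Full values are given for genes past 1.5-fold in any comparison, the highest and lowest level and the extreme PGC-1α contrasts of each complex, and subunit c. Alternatives were the pseudocount, filter, scaling, highest transcript, members and fold.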

Additional observations from a re-analysis of the deposited data

Results flagged for a closer look

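Atp5s was singled out because the same contrast went in opposite directions in 2 backgrounds. The log2 fold change for PGC-1α against control was -0.73 without OGD and 0.69 with OGD, and that for OGD was -0.91 in control cells and 0.51 in PGC-1α cells. The difference was not tested, since each group is 1 library. The gene was at 4.18 to 8.71 FPKM, divided over 5 transcripts.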

How the results depend on the processing

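With 1 library per group no replicate could be left out, and the depth is unknown. Of 208 recomputed counts and medians, 192 stayed within the limits set (1.5 times for a count, 0.1 for a median). The count of genes higher in PGC-1α than in Ctrl ranged from 10 to 15 over 8 alternatives, but was 5 among the 15 genes with 1 transcript and 1 at 2-fold. The count lower in PGC-1α than in Ctrl was 0 with the highest transcript, with 1-transcript genes, at 2-fold and without Atp5s, an alternative chosen after seeing the data. The count higher after OGD for PGC-1α against control was 0 under these same alternatives. For OGD in control cells, the count higher was 0 at 2-fold, and the count lower was 0 with 1-transcript genes, at 2-fold and without Atp5s. For OGD in PGC-1α cells, the count lower was 1 with the highest transcript, which is Atp5s-204. The median of ATP synthase after OGD was 0.10 with 1-transcript genes. Of 114 values of single genes 108 moved by less than 0.1 and 0 reversed. Atp5d fell to 0.23 with the highest transcript, and Atp5s to -0.19 and 0.01, its 2 contrasts of PGC-1α with control. Atp5k for OGD in control cells (0.57) with upper quartile scaling and Uqcrq for PGC-1α against Ctrl (0.52) with the highest transcript were then below 1.5-fold. For Atp5d, Atp5s and Uqcrq the alternative drops transcripts that the sum holds. For Atp5k upper quartile scaling divided Ctrl+OGD by 1.014 and Ctrl by 0.997. This took its value from 0.593 to 0.568, below the 0.585 of the threshold.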
